A study of Mus musculus with 10 samples.

Results

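Expression of homologous recombination and Fanconi repair genes was compared between haematopoietic stem cells (HSCs) with an induced Sox17 transgene and those of control littermates. The set holds 31 genes picked for their known role in this pathway, and 29 of them could be measured here, each by 1 probe set of an Affymetrix Mouse Gene 1.0 ST array. The other two, Xrcc2 and Rbbp8, had no probe set that named them alone and are not analysed here. Where a gene had several probe sets, as Bard1 and Nbn did, the one with the highest mean over all 10 arrays was used. The 29 stand among 19938 genes with a probe set of their own and 23410 probe sets tested.

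The transgenic group consisted of 5 arrays of HSCs from double transgenic mice, which carried the (tetO)7CMVSox17-IRES-NucEGFP transgene together with a reverse tetracycline activator at the Rosa26 locus, the allele Gt(ROSA)26Sortm1(rtTA*M2)Jae of the B6.Cg strain. The control group consisted of 5 arrays of HSCs from littermates labelled wild type. All mice were 8 weeks old, and both groups had drunk doxycycline at 2 mg/ml for 5 days, so the drug itself is common to both. Each array was made from 10000 uncultured bone marrow cells double-sorted as CD150+, CD48-, lineage-, Sca1+ and cKit+. Rosa26 is active in most tissues, so induction was not limited to HSCs by the activator's locus. The labels call the aliquots independent without tying them to single animals, so each p-value reflects only how far these samples scatter, part of which may be technical.

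Homologous recombination repairs a double-strand break by copying an intact sister chromatid, and so works mainly in cells that are replicating or have replicated their DNA. The break is first resected to single strands, BRCA1, PALB2 and BRCA2 prepare them for strand exchange, and with the help of the RAD54 motors they invade the matching duplex. The Fanconi proteins detect DNA crosslinks that stop replication forks and hand them to the same machinery, and their inherited loss is known for bone marrow failure. HSCs of the adult marrow are mostly out of cycle, where end joining is the route known to be at hand for breaks.

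Values are log2 units from robust multi-array averaging (RMA), in which 1 unit is a doubling of signal and low values are compressed. Differences are transgenic minus wild type, with the standard error (SE) from limma. A gene is said to pass where its limma p, after Benjamini-Hochberg adjustment over all 23410 probe sets, is under 0.05. The arrays' labels set every direction here, since the Sox17 probe set read 4.25 to 4.51 on the transgenic and 4.02 to 4.30 on the wild-type arrays and did not pass. Xist read 4.32 on transgenic array 4 and at least 10.8 elsewhere, and the Y-linked Eif2s3y 9.23 against at most 2.87, so this array alone came from male cells. The arrays also fell into 2 sets that cross the groups, found from the first principal component after each group's mean was subtracted. Set A holds transgenic arrays 1, 2 and 3 and wild-type arrays 1 and 2, and set B the other five. Of 13 measured stem cell markers 13 read above the median probe set. So did 3 of 9 lymphoid, 3 of 11 myeloid, 3 of 9 erythroid and 6 of 8 megakaryocyte markers. Another 4 of the 9 lymphoid markers, Cd3g, Cd79a, Ms4a1 and Klrd1, and the myeloid marker Ly6g read below the 20th percentile of all values. The mean over the 9 lymphoid markers ranged from 4.36 to 4.65 on the transgenic and from 4.59 to 4.87 on the wild-type arrays. The mean over 11 myeloid markers ranged from 4.85 to 6.08 on the transgenic and from 4.69 to 5.06 on the wild-type arrays, that over 9 erythroid markers from 5.62 to 5.96 and from 5.74 to 6.13, and that over 8 megakaryocyte markers from 6.31 to 6.49 and from 6.65 to 7.20. The part of these cells in the values of the repair genes was not tested.

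One member of the pathway fell on the transgenic arrays, and most of the others read lower without passing. Of the 29 genes 1 passed as lower, Fignl1, against 0.0214% of all probe sets, and 0 passed as higher, against 0.12%. An unadjusted p under 0.05 was reached by 9 genes, all 9 of them lower, while 2.9% of all probe sets were lower at that level and 3.7% higher. In 4 genes, Fignl1, Chek1, Fanca and Rad51c, every transgenic array lay below every wild-type array, as in 0.594% of all probe sets, and in 0 genes every transgenic array lay above (0.876% of all). The difference was negative in 25 of 29 genes, with a median of -0.17, while over the 23410 probe sets the median was -0.01 and 53.7% were negative. With the array sets as a block in limma, Fignl1 was again the 1 gene that passed (0.0769% of all probe sets passed as lower), and 11 genes, all lower, had an unadjusted p under 0.05 (3.69% of all). The sets were drawn from the scatter of these same values within the groups. Blocking on them removes scatter by design, so this fit is not separate evidence. These arrays are bulk measurements, in which fewer cells with a transcript and less transcript per cell cannot be told apart.

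**Figure D1:**
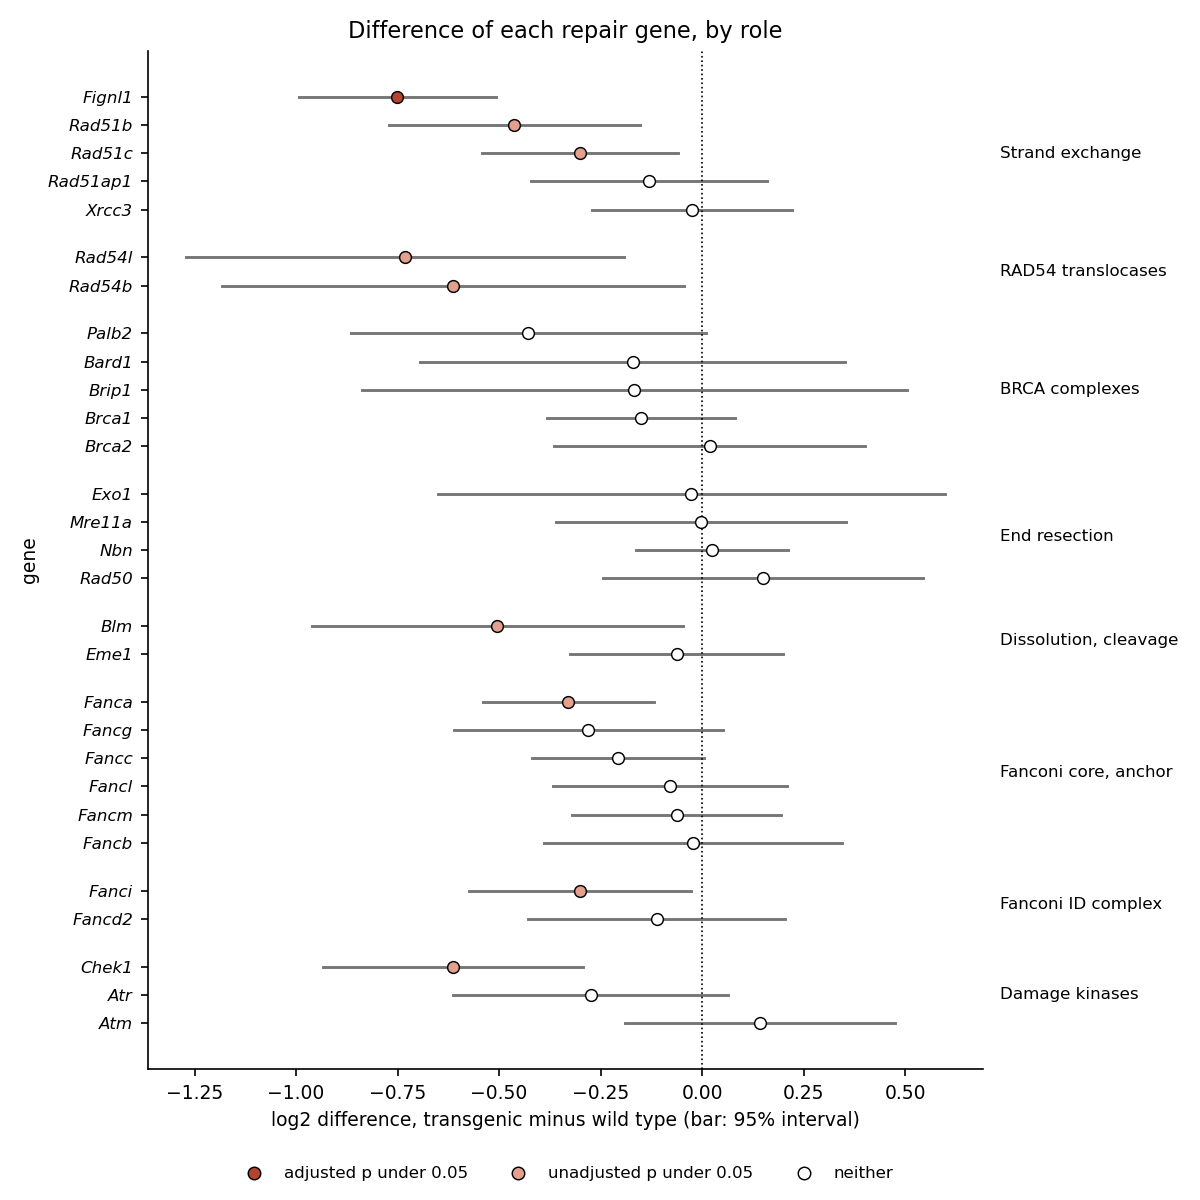
Log2 difference (transgenic minus wild type, horizontal axis) of each of the 29 measured genes, grouped by role, with the 95% interval from limma as a bar (5 arrays per group). Fignl1, at -0.75, is the 1 gene past the adjusted threshold; the intervals of 9 genes lie wholly below 0, and those of the 4 end resection genes span 0.

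Fignl1 encodes fidgetin-like 1, an AAA ATPase that acts in homologous recombination. It read 7.55, 7.00, 7.34, 7.42 and 7.25 on transgenic arrays 1 to 5 and 8.02, 8.29, 8.03, 7.91 and 8.05 on wild-type arrays 1 to 5. The groups did not overlap, the highest transgenic array being 7.55 and the lowest wild-type array 7.91. The means were 7.31 ± 0.20 and 8.06 ± 0.14 (SD, n = 5 each), a 1.68-fold lower signal on the transgenic arrays (log2 difference -0.75, SE 0.11, 95% interval -0.99 to -0.51). Its p ranked 24 among the 23410 probe sets (limma, adjusted p = 0.0278). Set A alone gave a difference of -0.86 and set B alone -0.67, with limma adjusted p of 0.342 and 0.287 from these fewer arrays. The call lies close to the threshold. It was kept with the array set, itself drawn from these values, as a block in limma (adjusted p = 0.0190). It was lost with the replicate number as a block (limma adjusted p = 0.115). Leaving out transgenic array 3, 4 or 5 gave adjusted p of 0.0805, 0.0699 and 0.0610, and leaving out wild-type arrays 1 to 5 in turn gave 0.0831, 0.0813, 0.0727, 0.05001 and 0.0806, while the difference itself stayed between -0.81 and -0.67. Over all 10 omissions the adjusted p ranged from 0.0262 to 0.0831.

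**Figure D2:**
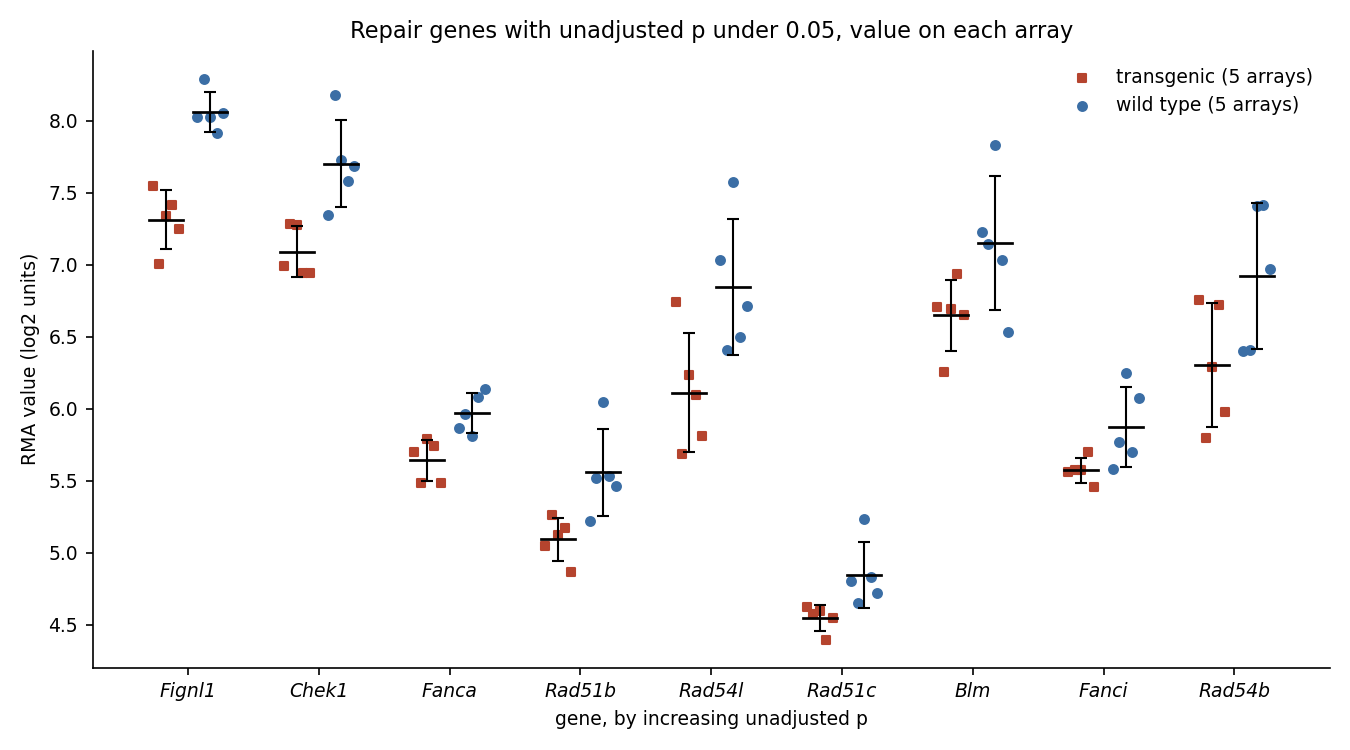
RMA value in log2 units (vertical axis) on each array for the 9 genes with an unadjusted p under 0.05, transgenic arrays as squares and wild-type arrays as circles, with the mean and SD of each group of 5. Fignl1, Chek1, Fanca and Rad51c show no overlap between the groups, and the remaining genes overlap by 1 or more arrays.

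Rad51b and Rad51c, which act in one complex that aids strand exchange, were lower by smaller steps and did not pass. Rad51b read 5.05, 5.26, 5.13, 5.17 and 4.87 on the transgenic arrays and 5.22, 5.52, 6.05, 5.54 and 5.47 on the wild-type arrays. The groups overlapped only through wild-type array 1, which lay below transgenic array 2 (log2 difference -0.46, SE 0.14, limma adjusted p = 0.412). Rad51c read 4.62, 4.58, 4.60, 4.40 and 4.55 against 4.80, 4.65, 5.24, 4.83 and 4.72. Its groups did not overlap, by a margin smaller than the spread within the wild-type arrays (-0.30, SE 0.11, adjusted p = 0.563), and wild-type array 3 was highest for both genes. Rad51ap1, which aids strand invasion, and Xrcc3, which pairs with RAD51C, differed by -0.13 (95% interval -0.42 to 0.16) and -0.025 (-0.27 to 0.22).

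The promoters of these genes were searched for short words of 4 kinds, namely elements known from cell cycle genes and a SOX word. RefSeq promoters of build GRCm38.p6, 250 bases before to 50 after the annotated start, were at hand for 24 of the 29 genes, all but Exo1, Rad54b, Fancd2, Rad50 and Nbn. They were searched on both strands for the E2F words TTTGGCGC, TTTCGCGC, TTTCCCGC and TTTGCCGC, the cell cycle homology word TTTGAA, the box CCAAT and the SOX word ATTGTT, where matches of different words may overlap. Only exact matches were counted, so sites that depart from these words were missed. An E2F word stood in 4 of the 24 (16.7%), in Bard1, Brca2, Fancg and Rad51c, against 3.48% of the 15614 array genes with a promoter and 14 of 31 DNA replication genes (45.2%). TTTGAA stood in 3 of 24 (12.5%, against 17.3% of array genes and 18 of 24 mitosis genes), CCAAT in 14 of 24 (58.3% against 41.7%) and ATTGTT in 0 of 24 (against 9.84%). Shown here are the promoter of the 1 gene that fell, 1 of the 2 promoters annotated for Rad51c, a gene whose groups did not overlap, and that of Brca2, which carries an E2F word and whose difference was near 0, with E2F words in capitals. The Fignl1 promoter (chr11:11808913-11809212, minus strand) held no exact match to any of the 4 kinds of word. It does hold attcccgc, which departs from TTTCCCGC in 1 base, but near matches were not counted in any set of genes.
Fignl1: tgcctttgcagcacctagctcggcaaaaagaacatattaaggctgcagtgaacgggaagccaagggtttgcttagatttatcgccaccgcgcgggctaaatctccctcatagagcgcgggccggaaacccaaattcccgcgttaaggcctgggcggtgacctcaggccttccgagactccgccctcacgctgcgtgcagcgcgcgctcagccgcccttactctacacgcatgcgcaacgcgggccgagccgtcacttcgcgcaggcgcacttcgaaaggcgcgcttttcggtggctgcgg
Rad51c: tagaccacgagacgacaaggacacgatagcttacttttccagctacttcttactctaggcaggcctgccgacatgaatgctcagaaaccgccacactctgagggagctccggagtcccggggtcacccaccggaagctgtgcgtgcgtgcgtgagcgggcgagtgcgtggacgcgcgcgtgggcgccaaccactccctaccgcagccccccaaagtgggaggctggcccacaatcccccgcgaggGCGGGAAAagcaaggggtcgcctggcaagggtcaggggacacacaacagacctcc
Brca2: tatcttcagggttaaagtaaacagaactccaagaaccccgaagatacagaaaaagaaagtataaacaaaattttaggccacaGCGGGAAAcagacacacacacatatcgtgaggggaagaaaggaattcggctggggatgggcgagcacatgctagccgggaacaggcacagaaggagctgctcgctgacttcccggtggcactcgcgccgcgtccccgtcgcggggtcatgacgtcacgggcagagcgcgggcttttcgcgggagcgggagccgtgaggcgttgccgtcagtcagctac
The Rad51c window (chr11:87404905-87405204, minus strand) holds TTTCCCGC, read on the opposite strand, from base -5 relative to the start, and the Brca2 window (chr5:150522371-150522670, plus strand) the same word on the opposite strand from base -168. The other Rad51c window (chr11:87404457-87404756) holds TTTCGCGC from base 11. Of the 8 genes with an unadjusted p under 0.05 and a promoter, 1, Rad51c, held an exact E2F word. This count leaves out near matches, such as tttggcgggaa at the end of the Chek1 window. Near matches also stand in genes with smaller differences, such as gcgggaat in the Rad51ap1 window and tttcgcgg in the Brca2 window. They do not set the lower genes apart.

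Both RAD54 motors, ATP-driven translocases that drive strand invasion, read lower on average and varied widely between arrays. Rad54l read 6.74, 5.69, 6.23, 6.09 and 5.81 on the transgenic and 7.04, 6.41, 7.57, 6.50 and 6.72 on the wild-type arrays. Transgenic array 1 lay within the wild-type range, and the difference of -0.73 (SE 0.25) was nearly that of Fignl1 but with over double the error (limma adjusted p = 0.490). Rad54b read 6.75, 5.79, 6.29, 6.72 and 5.98 against 6.40, 6.41, 7.41, 7.42 and 6.97. Transgenic arrays 1 and 4 were above wild-type arrays 1 and 2, and the difference (-0.61, SE 0.26, adjusted p = 0.708) was far smaller in set A (-0.12) than in set B (-0.92). In both genes transgenic array 2 was the lowest of all 10 arrays.

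Chek1, the checkpoint kinase that ATR switches on at stalled forks, was the member with the second smallest p. It read 6.99, 7.29, 7.28, 6.95 and 6.94 on the transgenic and 7.34, 8.18, 7.73, 7.58 and 7.68 on the wild-type arrays. All transgenic arrays lay below all wild-type arrays, with wild-type array 1 only just above transgenic array 2, and the signal was 1.53-fold lower (log2 difference -0.61, SE 0.15), which did not pass (limma adjusted p = 0.207; the set block gave 0.104). Atr itself, the kinase upstream, ranged from 7.49 to 8.03 and from 7.70 to 8.34, with a difference of -0.27 (95% interval -0.61 to 0.06). Atm, the kinase that answers double-strand breaks, ranged from 7.55 to 7.74 on the transgenic and from 6.94 to 7.76 on the wild-type arrays. Its difference of 0.14 (-0.19 to 0.48) turned to -0.0045 without wild-type array 4, the lowest array, and was -0.07 within set A.

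In the Fanconi core group and the pair of Fanci and Fancd2, all 8 measured genes had negative differences, against 53.7% of all probe sets. Of the 8 genes 0 passed (limma), with an unadjusted p under 0.05 for 2. Fanca, a subunit of the core complex, read 5.70, 5.49, 5.79, 5.75 and 5.49 on the transgenic and 5.87, 5.96, 5.81, 6.08 and 6.14 on the wild-type arrays. The groups did not overlap, transgenic array 3 and wild-type array 3 being nearest to each other (log2 difference -0.33, SE 0.10, limma adjusted p = 0.375). Fanci, which with Fancd2 forms the clamp that the core complex ubiquitinates, read 5.56, 5.57, 5.57, 5.70 and 5.46 against 5.58, 5.77, 6.25, 5.70 and 6.07. Its difference of -0.30 (SE 0.12) came mainly from wild-type arrays 3 and 5, the other 3 lying close to the transgenic arrays. Its partner Fancd2 differed by -0.11 (95% interval -0.43 to 0.21).

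Among the remaining core genes Fancc lay just outside an unadjusted p of 0.05 (log2 difference -0.21, SE 0.10, limma adjusted p = 0.765), as did Palb2 of the BRCA group (adjusted p = 0.769). Fancg differed by -0.28 (95% interval -0.61 to 0.05). Fancl, the ubiquitin ligase of the complex, differed by -0.08 (-0.37 to 0.21). The values were -0.06 (-0.32 to 0.20) for Fancm, the translocase that anchors the complex on DNA, and -0.02 (-0.39 to 0.34) for the X-linked Fancb. For Fancl set A gave a difference of 0.06 and set B one of -0.14, and that of Fancm turned within set B (0.01). That of Fancb was slightly positive in both sets (0.01 and 0.08), against a pooled value just below 0.

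Of the 5 BRCA genes 0 passed (limma) and 0 had an unadjusted p under 0.05. Brca1 and Bard1, which together form a ubiquitin ligase that promotes resection, differed by -0.15 (95% interval -0.38 to 0.08) and -0.17 (-0.69 to 0.35). The other two Bard1 probe sets differed by -0.24 (SE 0.31) and -0.27 (SE 0.14), and the one used ranged from 6.26 on transgenic array 5 to 7.73 on transgenic array 1, wider than the whole wild-type range of 6.84 to 7.57. Palb2, which joins BRCA1 to BRCA2, read 5.19 to 5.89 against 5.50 to 6.50 (-0.43, SE 0.20). Brca2, which acts at the step before strand invasion, differed by 0.02 (-0.36 to 0.40) and Brip1, the helicase bound by BRCA1, by -0.17 (-0.84 to 0.50). Brip1 followed the array sets, the set A difference being -0.71 against 0.16 for set B. It read 6.90 and 6.85 on wild-type arrays 1 and 2 against 5.41 and 5.80 on wild-type arrays 4 and 5.

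The genes of end resection showed no common direction. Nbn and Rad50, which with MRE11 form the complex that senses broken ends, differed by 0.02 (95% interval -0.16 to 0.21) and 0.15 (-0.25 to 0.54), and Mre11a by -0.0030 (-0.36 to 0.35). The interval of Nbn excludes the size of the Fignl1 difference. Exo1, the nuclease of long-range resection, differed by -0.03, with an interval too wide to place it (-0.65 to 0.60). It read 6.78 and 6.98 on wild-type arrays 1 and 2 and 5.29 to 5.88 on wild-type arrays 3 to 5, while the transgenic arrays held between 5.81 and 6.30. Set A gave a difference of -0.65 and set B one of 0.30, so its pooled value is a mean of opposite ones. Further downstream, the helicase gene Blm, whose product dissolves joined recombination intermediates, read 6.71, 6.25, 6.70, 6.94 and 6.65 on the transgenic and 7.22, 7.14, 7.83, 7.03 and 6.54 on the wild-type arrays. Only wild-type array 5 lay within the transgenic range (-0.50, SE 0.21, limma adjusted p = 0.694). Eme1, the partner of the MUS81 nuclease that cuts such intermediates, differed by -0.06 (-0.33 to 0.20).

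Across arrays the members did not move as one block. Wild-type array 3 held the highest value of all 10 arrays for 12 of the 29 genes and wild-type array 2 for 6, while transgenic arrays 5 and 2 held the lowest for 8 and 7. Wild-type array 4 was the lowest for 5 genes, Brca2, Brip1, Exo1, Rad50 and Atm. A score for each array, the mean over the 29 genes of the deviation from each gene's mean over all arrays, was -0.03, -0.22, -0.07, -0.01 and -0.23 on the transgenic and 0.11, 0.15, 0.34, -0.05 and 0.02 on the wild-type arrays. The groups overlapped in this score only through wild-type array 4, which lay below transgenic arrays 1 and 4. Within set A 26 of the 29 genes had a negative difference (51.1% of all probe sets) and within set B 20 (54.2%). In both sets 18 did, a count for which the share over all probe sets was not computed. All 9 genes with an unadjusted p under 0.05 are among them, but these were picked on the same arrays, so their agreement is not separate evidence.

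**Figure D3:**
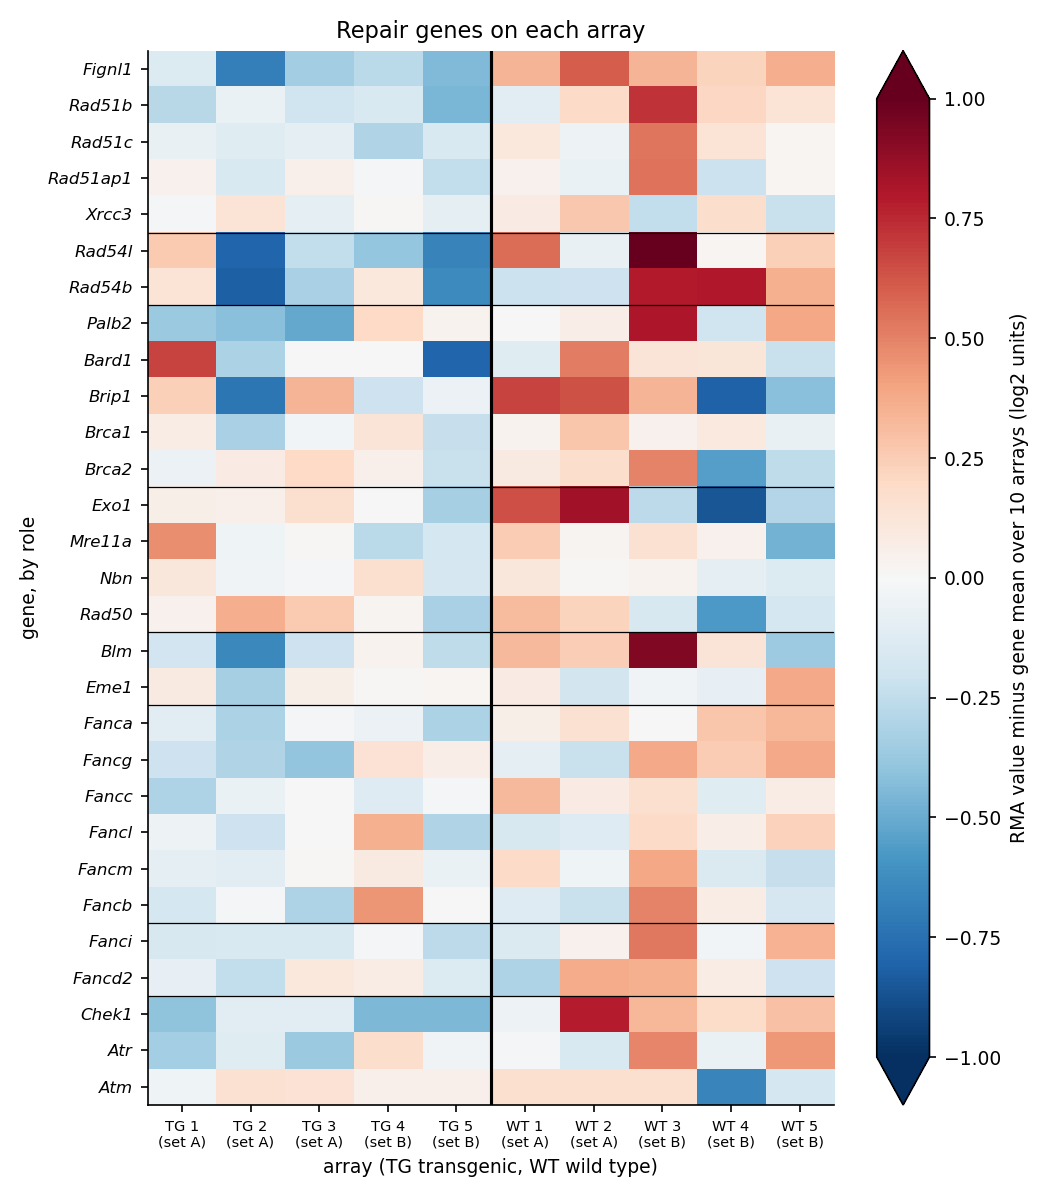
RMA value minus the gene's mean over the 10 arrays (colour, log2 units) for the 29 genes by role (rows) on the 5 transgenic and 5 wild-type arrays (columns), with the array set under each column; colours saturate at 1 unit. Wild-type array 3 is highest for 12 genes, and Fignl1 is the row with the clearest border between the groups.

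A further list of 44 homologous recombination and Fanconi genes, of which 40 had a probe set of their own, was measured beside the members. Eme2, Rnf8 and Helq are among those not analysed here. Of the 40 genes 0 passed (limma), 9 were lower and 0 higher at an unadjusted p under 0.05, and 33 had negative differences, with a median of -0.13. Faap24, a DNA-binding partner of FANCM, differed by -0.35 (SE 0.08) and ranged from 5.61 to 5.70 on the transgenic and from 5.78 to 6.17 on the wild-type arrays, without overlap. Mcm8, a helicase of recombination, differed by -0.56 (SE 0.14) and Topbp1, the activator of ATR, by -0.27 (SE 0.08), also without overlap. The checkpoint factors Rad9a and Clspn differed by -0.47 and -0.37, and Rpa3, Spidr and Ercc4 by -0.36, -0.28 and -0.31. Adjusted p for these 8 genes ran from 0.210 (Faap24) to 0.695 (Ercc4). Usp1, which removes ubiquitin from FANCD2, averaged 7.21 in both groups.

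**Figure D4:**
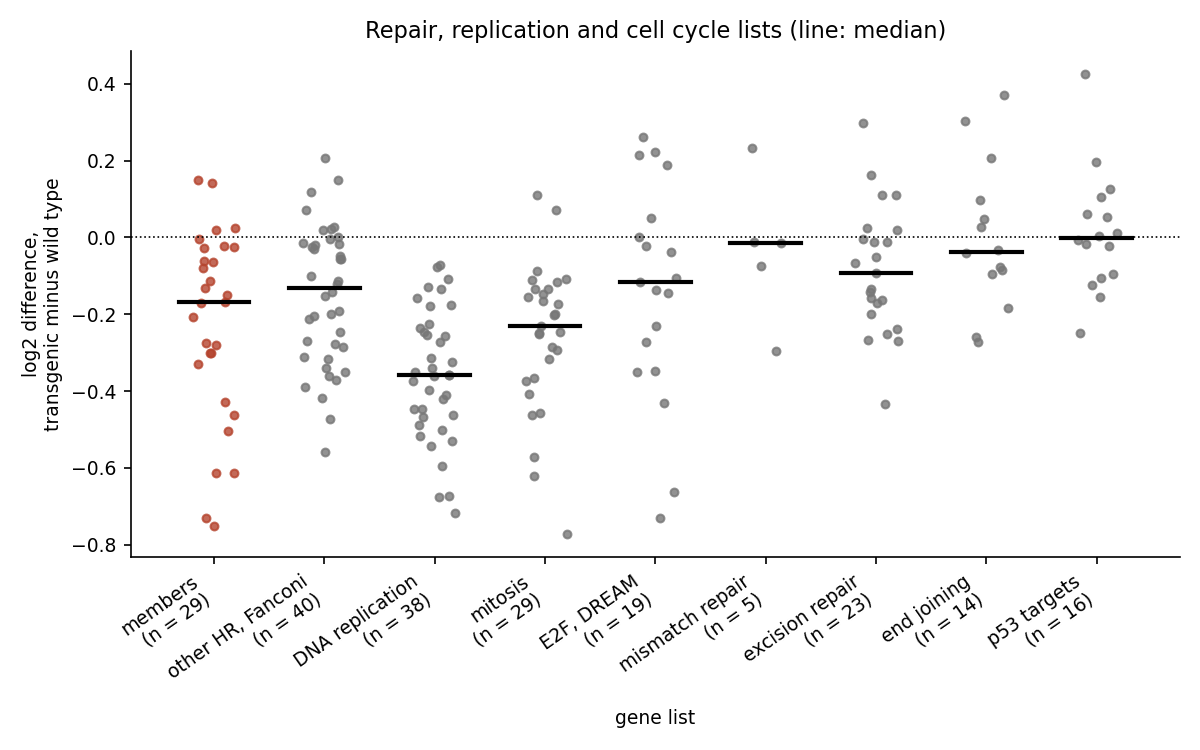
Log2 difference (transgenic minus wild type, vertical axis) of every measured gene of the repair set and of 8 other lists, with the median of each list as a line. The DNA replication list lies lowest (median -0.36), the recombination and Fanconi genes at -0.17, and the end joining and p53 target lists near 0.

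Repair genes outside recombination showed smaller medians. End joining, the route that needs no sister chromatid, had a median of -0.04 over 14 genes, with 8 negative. At an unadjusted p under 0.05, 2 of them were higher and 1 lower. The higher ones were Xrcc5, the KU80 subunit that caps broken ends, at 0.37 (SE 0.13), and the ligation factor Xrcc4 at 0.30 (SE 0.14). The lower one was the ligase gene Lig4, at -0.27 (SE 0.12), and 0 of the 14 passed (limma; adjusted p = 0.560, 0.748 and 0.750 for these 3). The median over 23 excision repair genes was -0.09, with 17 negative, and 0 had an unadjusted p under 0.05 and 0 passed (limma). Over 5 mismatch repair genes the median was -0.01, with 4 negative, and 1, Pms1, was lower at that level (-0.30, SE 0.13). Negative differences were thus common in these 2 lists as well, against 53.7% of all probe sets and 25 of the 29 recombination and Fanconi members. Of 16 targets of p53, which rise when DNA damage is signalled, 8 were positive and 8 negative with a median of -0.0011. Here Eda2r was higher (0.20, SE 0.08) and Mdm2 lower (-0.25, SE 0.11) at an unadjusted p under 0.05, and 0 passed (limma). The difference between the recombination genes and these lists was not tested.

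Genes of DNA replication and mitosis read lower as well. All 38 measured replication genes were lower on the transgenic arrays, with a median of -0.36, and 24 had an unadjusted p under 0.05, while 0 passed (limma). Cdc6, which loads the replicative helicase, differed by -0.72 (SE 0.15), a size near that of Fignl1. Of 29 mitosis genes 27 were negative (median -0.23), 5 were lower at an unadjusted p under 0.05 and 0 passed (limma). Among 19 E2F and DREAM complex genes, Mybl2 differed by -0.73 (SE 0.15), E2f8 by -0.66 (SE 0.20), Rbl1 by -0.43 (SE 0.13) and E2f1 by -0.35 (SE 0.12), with limma adjusted p of 0.117 to 0.557. Of the whole E2F and DREAM list 13 genes were negative and 6 positive (median -0.12), 5 were lower and 0 higher at an unadjusted p under 0.05, and 0 passed (limma); Lin9 (0.26), Lin52 (0.22) and Tfdp2 (0.21), named after their values were seen, had the highest differences. The replication score of an array ranged from -0.30 to -0.12 on the transgenic and from 0.06 to 0.35 on the wild-type arrays, without overlap. The mitosis score overlapped, from -0.52 to 0.38 and from -0.03 to 0.27, and was highest of all on transgenic array 1. On that array Fignl1 (7.55) and Chek1 (6.99) still lay below every wild-type array, whereas Rad54l (6.74) and Bard1 (7.73) lay within or above the wild-type range. The part of the replication genes' shift in the repair genes' values was not tested.

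**Figure D5:**
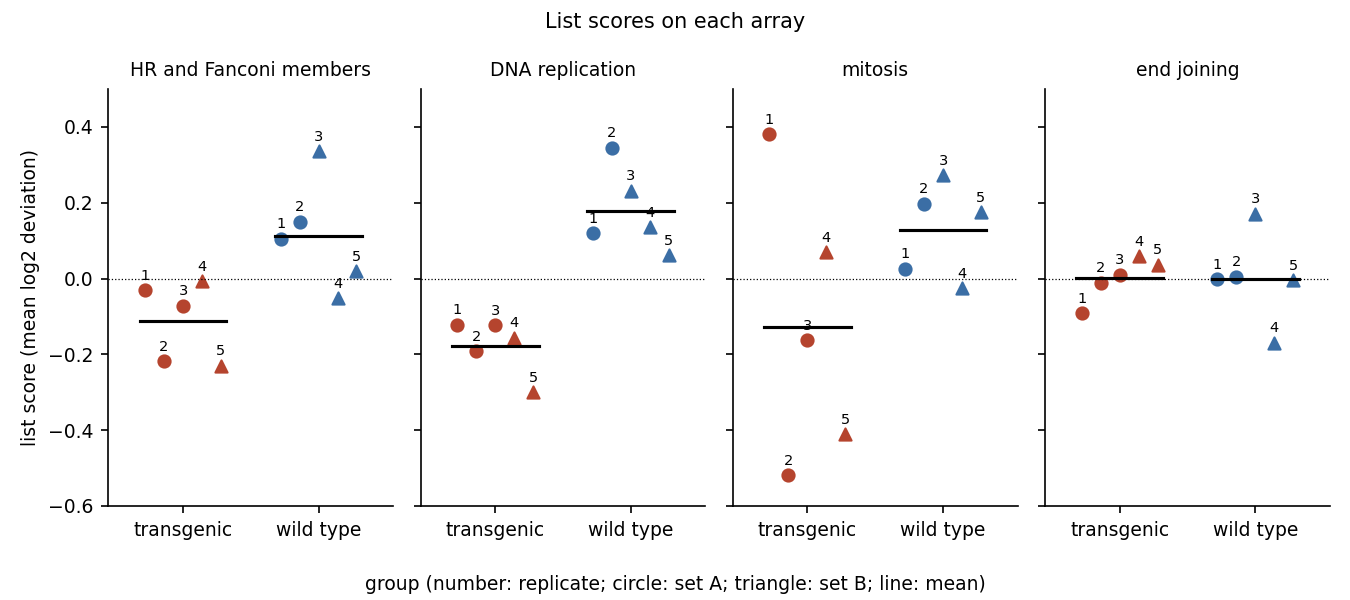
Score of each array (mean log2 deviation of a list's genes from their means over all arrays, vertical axis) for the repair set, DNA replication, mitosis and end joining, by group, with replicate numbers, array set A as circles, set B as triangles and the group mean as a line. The replication scores do not overlap between the groups, the repair scores overlap through wild-type array 4, and transgenic array 1 has the highest mitosis score, 0.38.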

How the data were processed

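Gene expression was measured on 10 arrays, 5 per group, and groups and replicate numbers came from the sample titles. The authors deposited log2 values from RMA, with affy and limma also named per the submitters' processing notes, which state neither versions nor settings. The table holds 35556 probe sets, of which the platform annotation pairs 21789 with 1 gene and 1621 with several; 12146 are unnamed here. The values were used as deposited, and the number of arrays limits their precision.

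The 23410 named probe sets were fitted with limma 3.58.1 in R 4.3.3 (lmFit, eBayes, two-sided), and the script was tested on simulated data. All members are reported, with values on every array for those with an unadjusted p under 0.05, and from other lists up to 4 genes (8 for the further recombination list) of smallest p; Usp1 and the genes named for single arrays were chosen after their values were seen. The members and lists were chosen with earlier results of these data known. Alternatives were a replicate block, median centring, quantile normalization, brighter or all probe sets, a floor at the 20th percentile, an intensity trend with robust hyperparameters, array weights, the mean of a gene's probe sets, a threshold of 0.01 and leaving out each array; the array sets, as a block and one at a time, were added after seeing the data.

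Deviations of same-numbered transgenic and wild-type arrays from their group means correlated by 0.24, 0.35, -0.14, 0.11 and 0.33. The arrays numbered 3, which gave -0.14, lie in different array sets. Differently numbered arrays were not compared in this way, so these values cannot exclude a pairing. The main fit took no pairs, and with the replicate number as a block Fignl1 did not pass (limma adjusted p = 0.115).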

Additional observations from a re-analysis of the deposited data

Results flagged for a closer look

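Eme1 on transgenic array 2 read 4.82, apart from the other four transgenic arrays, which ran from 5.16 to 5.24; the gap of this array was 0.813 of the group's range. It was the 1 group singled out among the 58 groups of 5 arrays examined for such a gap, where chance alone singles out about 1 in 20.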

How the results depend on the processing

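The direction of Fignl1 (lower), of the median over the 29 genes and of the other 8 genes with an unadjusted p under 0.05 was the same under every alternative that tested them. By design, the replicate block, brighter or all probe sets, the trend and the threshold of 0.01 leave each gene's difference unchanged. They do not test a gene's direction. Fignl1 and the other 8 genes were also picked by p on these same arrays. The count of 1 gene past the threshold and the call of Fignl1 were kept with quantile normalization, median centring, brighter probe sets only (19 of the 29 genes tested), array weights, the mean of a gene's probe sets and the array set as a block. The count fell to 0 with the replicate block (pairing by number, Fignl1 adjusted p = 0.115; 33 probe sets passed in all, as without the block), with all probe sets of the table (adjusted p = 0.0749; 15 passed in all), with the floor (0.0831; 8), with the trend and robust hyperparameters (0.0521; 38), at the threshold of 0.01 (7 in all), within set A (4 in all) and within set B (6). The set block, drawn from the scatter of these same values, let 91 probe sets pass, against 33 without it. With 1 array left out the count was 0 to 1, the number over all probe sets 15 (without transgenic array 4) to 71 (without transgenic array 2), and the median -0.24 to -0.11. The cause of these changes was not tested, except that within a set fewer arrays were fitted.

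Several genes with differences of at most the size of that of Bard1 (-0.17) changed sign. With 1 array left out, Atm ranged from -0.0045 to 0.20, Bard1 from -0.36 to 0.0061, Fancm from -0.13 to 0.027, Eme1 from -0.12 to 0.023, Nbn from -0.013 to 0.068, Xrcc3 from -0.090 to 0.039, Fancb from -0.14 to 0.099, Brca2 from -0.12 to 0.14, Exo1 from -0.24 to 0.18 and Mre11a from -0.12 to 0.065. Median centring gave 0.0080 for Mre11a, array weights 0.022 for Fancb and 0.010 for Mre11a, the mean of both probe sets -0.042 for Nbn, and the set block 0.047 for Fancb and -0.021 for Brca2. Within set A the values were -0.074 for Atm, -0.045 for Rad50, 0.059 for Fancl, -0.043 for Nbn, 0.0091 for Fancb, -0.058 for Brca2 and 0.0036 for Mre11a, and within set B 0.16 for Brip1, 0.011 for Fancm, 0.053 for Xrcc3, 0.085 for Fancb and 0.30 for Exo1. RMA compresses low values, so a change in genes that read low, such as Rad51c, may be understated.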
